A study of Homo sapiens with 13 samples.

Results

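The genes described here encode the proteins of the mitochondrial ribosome. They were chosen by name, as all rows of the deposited count table whose symbol is MRPL or MRPS followed by a number and at most 1 letter from A to C. That rule uses no measured value and found 78 of the 60591 genes in the table. Of these, 51 encode proteins of the large subunit, 26 encode proteins of the small subunit, and MRPS36 encodes a protein now known as an adaptor of the 2-oxoglutarate dehydrogenase complex and not as a part of the ribosome. Symbols do not always follow the subunit: MRPS30 and MRPS18A, named after the small subunit, encode proteins of the large one and were counted there.

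TE11 cells, by their label a human line of esophageal squamous cell carcinoma, had their RNA sequenced after 48 h in 4 conditions. These were 0.1% DMSO (vehicle, n = 4), chloroquine at 10 µM (n = 3), 5-fluorouracil (5-FU) at 25 µM (n = 3), and both drugs at those doses (combination, n = 3). Lysosomes trap chloroquine, a weak base, and late steps of autophagy are then blocked. The pyrimidine analogue 5-FU blocks thymidylate synthase and enters RNA and DNA. The comparisons asked how the RNA levels of these genes differed under each drug, and whether the effect of one drug differed with the other present.

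The mitochondrial ribosome translates the few mRNAs encoded by mitochondrial DNA, all of which specify subunits of the respiratory chain and ATP synthase. Its RNAs come from mitochondrial DNA, but all its proteins are encoded in the nucleus, made in the cytosol and imported. Some descend from bacterial ribosomal proteins and others have no bacterial relative, and loss of single members is known to impair respiration and to cause inherited mitochondrial disease. Promoters of nuclear genes for mitochondrial proteins often carry sites for nuclear respiratory factor 1 (NRF1) and for GA-binding protein, an ETS family factor also called nuclear respiratory factor 2.

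Promoters of 8 members that the results turn on are shown first. The ETS core CCGGAAG was found in 42.0% of the promoters matched to members and in 10.7% of all promoters, which include genes not tested here. Whether it bears on the changes described below was not tested. The 120 bases before the annotated start are given 5′ to 3′ on the strand of the gene, as RefSeq has them in GRCh38.p14, with matches to CCGGAAG on either strand in capitals. MRPS34 had 3 matches and MRPL3, MRPL48 and MRPL47 had 1 each, while MRPL12, MRPL1, MRPL39 and MRPS25 had 0 in these stretches.
MRPS34, chr16:1773135-1773254, minus strand: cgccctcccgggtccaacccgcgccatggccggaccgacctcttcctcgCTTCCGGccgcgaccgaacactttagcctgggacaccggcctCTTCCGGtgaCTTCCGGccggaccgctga
MRPL3, chr3:131502972-131503091, minus strand: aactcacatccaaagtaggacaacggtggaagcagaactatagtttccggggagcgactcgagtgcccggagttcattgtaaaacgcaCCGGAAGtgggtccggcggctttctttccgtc
MRPL48, chr11:73787754-73787873, plus strand: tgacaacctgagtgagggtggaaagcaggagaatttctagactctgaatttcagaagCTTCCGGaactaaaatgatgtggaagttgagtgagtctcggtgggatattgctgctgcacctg
MRPL47, chr3:179604639-179604758, minus strand: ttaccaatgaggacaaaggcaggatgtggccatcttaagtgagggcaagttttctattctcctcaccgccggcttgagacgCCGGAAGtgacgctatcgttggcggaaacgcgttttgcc
MRPL12, chr17:81703247-81703366, plus strand: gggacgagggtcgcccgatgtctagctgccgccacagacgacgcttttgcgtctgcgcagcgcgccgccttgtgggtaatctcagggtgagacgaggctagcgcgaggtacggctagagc
MRPL1, chr4:77862710-77862829, plus strand: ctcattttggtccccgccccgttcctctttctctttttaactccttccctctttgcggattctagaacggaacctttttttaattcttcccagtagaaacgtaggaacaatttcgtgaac
MRPL39, chr21:25607482-25607601, minus strand: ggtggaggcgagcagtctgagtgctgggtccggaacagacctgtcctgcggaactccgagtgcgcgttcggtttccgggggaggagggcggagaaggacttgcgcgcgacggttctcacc
MRPS25, chr3:15065316-15065435, minus strand: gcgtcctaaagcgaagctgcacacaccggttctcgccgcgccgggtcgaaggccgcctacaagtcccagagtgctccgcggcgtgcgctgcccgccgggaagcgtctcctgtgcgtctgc

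Library totals ran from 17834539 to 23679833 counts. The median count of a member was 1409.5, and 60 of 78 members had at least 500 counts in every library. MRPL53 (0 to 2 counts per library) was left out by the filter on low counts, so 77 members were tested, and MRPS18B (21 to 72 counts per library) was tested at low depth. Of 12 squamous epithelial markers, 11 had at most 12 counts in every library and SFN had 7 to 74, so the label of a squamous line was not borne out by these markers. Of 5 simple epithelial markers KRT18 had 747 to 1361 counts and the other 4 had 0 to 389. Of 4 neuronal markers the intermediate filament genes NEFL, NEFM and INA had 971 to 5413 counts, and ELAVL4 had 0 or 1. In 5 libraries (vehicle 4, chloroquine 1 and 2, 5-FU 2 and combination 2) the fibroblast collagen gene COL1A2 had 153 to 741 counts, against 1 to 7 in the other 8. The summed counts of the 6 fibroblast markers were 676 to 2518 in those 5 libraries and 223 to 642 in the other 8. HBB, an erythroid marker, had 88 to 203 counts in vehicle 4 and chloroquine 1 and 2, but 0 in 5-FU 2 and combination 2. The leukocyte marker MS4A1 had 7 to 62 counts in the 5 libraries and 0 or 1 elsewhere. The 5 libraries thus differ among themselves in these markers. Because chloroquine has 2 of these libraries, each main comparison is also given without the 5, as a median where it uses the chloroquine group. That leaves chloroquine with 1 library, which is then assumed to vary like the others. Nothing in the labels says that replicates were separate cultures: the p-values cover only the spread among these libraries, which may be technical. In bulk RNA, fewer cells of a type and less RNA per cell cannot be told apart.

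Summed over the 77 genes tested, RNA for mitochondrial ribosomal proteins was on average highest in vehicle and lowest under chloroquine alone. Levels are given as CPM, the counts of a gene scaled to a common library total, with libraries adjusted by TMM, a method that assumes that most genes do not differ. The sums were 6536, 6347, 6351 and 6003 CPM in the vehicle libraries and 4918, 4945 and 5047 CPM in the chloroquine libraries. They were 5482, 5404 and 5480.2 CPM with 5-FU and 5867, 5846 and 6238 CPM with the combination. No chloroquine or 5-FU library reached the lowest vehicle library, and the combination overlapped vehicle only at vehicle 4 (6003 CPM), 1 of the 5 libraries with COL1A2: without those 5, vehicle held 6347 to 6536 CPM and the combination 5867 to 6238 CPM. Group means were 6309 ± 222 CPM (SD, n = 4) for vehicle, 4970 ± 68.2 CPM (SD, n = 3) for chloroquine, 5455 ± 44.4 CPM (SD, n = 3) for 5-FU and 5983 ± 221 CPM (SD, n = 3) for the combination. As an unscaled share of all counts, all 78 genes held 0.568% to 0.604% in vehicle, 0.491% to 0.501% under chloroquine, 0.5803% to 0.5804% under 5-FU and 0.605% to 0.638% in the combination. On that scale chloroquine was again below all other groups, 5-FU lay inside the range of vehicle, and the combination lay narrowly above every vehicle library (0.6048% in its lowest library against 0.6043% in the highest vehicle library). TMM factors differed between groups (0.925 to 0.947 in vehicle and 1.060 to 1.076 with 5-FU), so the position of 5-FU against vehicle depends on the scaling. It also rests on vehicle 4, which had the share of 0.568%: without the 5 libraries the shares in vehicle were 0.588% to 0.604%, above both remaining 5-FU libraries. The ratio of large-subunit to small-subunit RNA on the CPM scale was 1.96 ± 0.0141 (SD, n = 4) in vehicle, 1.87 ± 0.00755 (SD, n = 3) under chloroquine, 1.88 ± 0.0405 (SD, n = 3) under 5-FU and 1.91 ± 0.0223 (SD, n = 3) in the combination.

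Chloroquine alone lowered most of these genes. Of the 77 tested, 60 fell (adjusted p under 0.05 over all genes, edgeR quasi-likelihood test), 1 rose and 16 did not pass. Over all 19514 genes tested, 19.1% were called lower and 20.3% higher. The median log2 fold change of the members was -0.33, against 0.02 over all genes, and values ran from -0.95 to 0.16. In 60 members every chloroquine library lay below every vehicle library, as was so in 23.2% of all genes. With libraries scaled by total count only, 48 members were called lower and 1 higher, beside 12.4% and 27.9% of all genes. With only genes of at least 10 CPM in 3 libraries kept, 54 of 76 were lower and 1 higher, beside 24.8% and 26.3%. Without the 5 libraries with COL1A2, which leaves chloroquine with 1 library, the median of the members was -0.36 (0.0057 over all genes).

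The deepest falls under chloroquine were in MRPL12, MRPS28 and MRPL1. MRPL12 encodes the stalk protein of the large subunit that recruits translation factors. Its levels were 58.8, 58.9, 61.9 and 51.6 CPM in vehicle and 27.4, 29.1 and 33.7 CPM under chloroquine. The groups did not overlap, and the log2 fold change was -0.95 (SE 0.16, adjusted p = 0.000323). In GENCODE 29, 68.2% of the exon length of MRPL12 is shared with a gene on the same strand, AC139530.2, so its reads may not all be its own. MRPS28, a small-subunit protein, had 16, 16.9, 13.2 and 11 CPM in vehicle and 7.25, 7.69 and 8.14 CPM under chloroquine, again without overlap, and its log2 fold change was -0.89 (SE 0.14, adjusted p = 0.000161). MRPL1 belongs to the stalk past which spent tRNAs leave the ribosome. It had 40.3, 43.1, 40.7 and 38.9 CPM in vehicle and 20.2, 21 and 26.1 CPM under chloroquine. Every chloroquine library was lower, with a log2 fold change of -0.87 (SE 0.09, adjusted p = 9.47e-06).

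MRPL47, MRPS9, MRPL39, MRPS18C and MRPL3 were the rest of the 8 deepest falls. MRPL47, a relative of bacterial L29 at the exit of the peptide tunnel, had 71.3, 75.7, 70.3 and 67.2 CPM in vehicle and 44.1, 42.4 and 44.5 CPM under chloroquine. The log2 fold change was -0.70 (SE 0.07, adjusted p = 2.73e-06), with no overlap. MRPS9 (log2 fold change -0.69) and MRPL3 (-0.62) are relatives of bacterial proteins, MRPL39 (-0.68) is specific to mitochondria, and MRPS18C (-0.65) is 1 of the mammalian relatives of bacterial S18. All 4 had no overlap between groups. MRPS25, a mitochondria-specific small-subunit protein, was the 1 member that rose: it had 93.7, 91.6, 89.4 and 87.3 CPM in vehicle and 103, 102 and 99.6 CPM under chloroquine, and its log2 fold change was 0.16 (SE 0.05, adjusted p = 0.0118). The groups did not overlap, but the rise is small. It lost its call without chloroquine 1 (0.15, adjusted p = 0.0533), without the 5 libraries with COL1A2 (0.12, adjusted p = 0.374), with no filter on low counts and with the replicate block (0.15, adjusted p = 0.0582).

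5-FU alone gave a mixed picture, with more members lower than higher. Of the 77 tested, 39 fell, 8 rose and 30 did not pass, while 29.5% of all genes were called lower and 30.8% higher. The median log2 fold change was -0.20 (0.01 over all genes), and the range, -1.18 to 0.44, was wider than under chloroquine. In 39 members the 5-FU libraries lay wholly below vehicle (28.3% of all genes), and in 6 wholly above (29.8%). With libraries scaled by total count only, 24 members were called lower and 19 higher, beside 18.8% lower and 42.5% higher over all genes, whose median was then 0.20. The median of the members was -0.21 relative to that of all genes under both scalings. Without the 5 libraries with COL1A2, 41 were called lower and 5 higher, beside 29% and 29.9% of all genes.

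MRPS28 and MRPL39 had the deepest falls under 5-FU. MRPS28 had 6.59, 6.02 and 6.22 CPM, below all vehicle libraries listed above, and a log2 fold change of -1.18 (SE 0.14, adjusted p = 4.41e-06). MRPL39 had 75.1, 72.3, 75.6 and 64.2 CPM in vehicle and 33, 38 and 38.2 CPM under 5-FU. The lowest vehicle library was well above the highest 5-FU library, and the log2 fold change was -0.98 (SE 0.07, adjusted p = 2.51e-08). MRPS34, a mitochondria-specific small-subunit protein altered in some cases of Leigh syndrome, had 152, 141, 146 and 146 CPM in vehicle and 89.8, 78 and 72.4 CPM under 5-FU, without overlap. Its log2 fold change was -0.87 (SE 0.07, adjusted p = 5.25e-08). MRPL3, a large-subunit core protein, had 237, 237, 236 and 242 CPM in vehicle and 128, 148 and 140.3 CPM under 5-FU, a log2 fold change of -0.78 (SE 0.05, adjusted p = 8.82e-09) with no overlap. MRPL16 (-0.69), MRPS26 (-0.65), MRPL36 (-0.63) and MRPL24 (-0.61) followed on the same log2 scale.

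The 8 members that rose under 5-FU were led by MRPS11 and MRPS15, both small-subunit relatives of bacterial proteins. MRPS11 had 72.3, 65.5, 67.3 and 66.1 CPM in vehicle and 93.3, 93.1 and 89.5 CPM under 5-FU. MRPS15 had 105, 98.7, 102 and 95.2 CPM in vehicle and 124, 138 and 130.3 CPM under 5-FU. Both were higher in every 5-FU library, with log2 fold changes of 0.44 (SE 0.05, adjusted p = 7.94e-06) and 0.39 (SE 0.05, adjusted p = 1.6e-05). MRPS18A (0.28), MRPL46 (0.28), MRPL47 (0.23), MRPL28 (0.23), MRPL10 (0.18) and MRPL52 (0.15) rose less, and 4 of the 8 rises kept their call in all 23 alternatives. MRPL12 varied between the 5-FU libraries, with 57.9, 33.8 and 36.6 CPM: 5-FU 1 lay inside the range of vehicle and the others below it. Its log2 fold change was -0.44 (SE 0.15, adjusted p = 0.0227), and the call was lost without 5-FU 2 (-0.30, adjusted p = 0.103), without 5-FU 3 (-0.34, adjusted p = 0.112), without vehicle 3 (-0.40, adjusted p = 0.0556) and with libraries scaled by total count only.

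**Figure D1:**
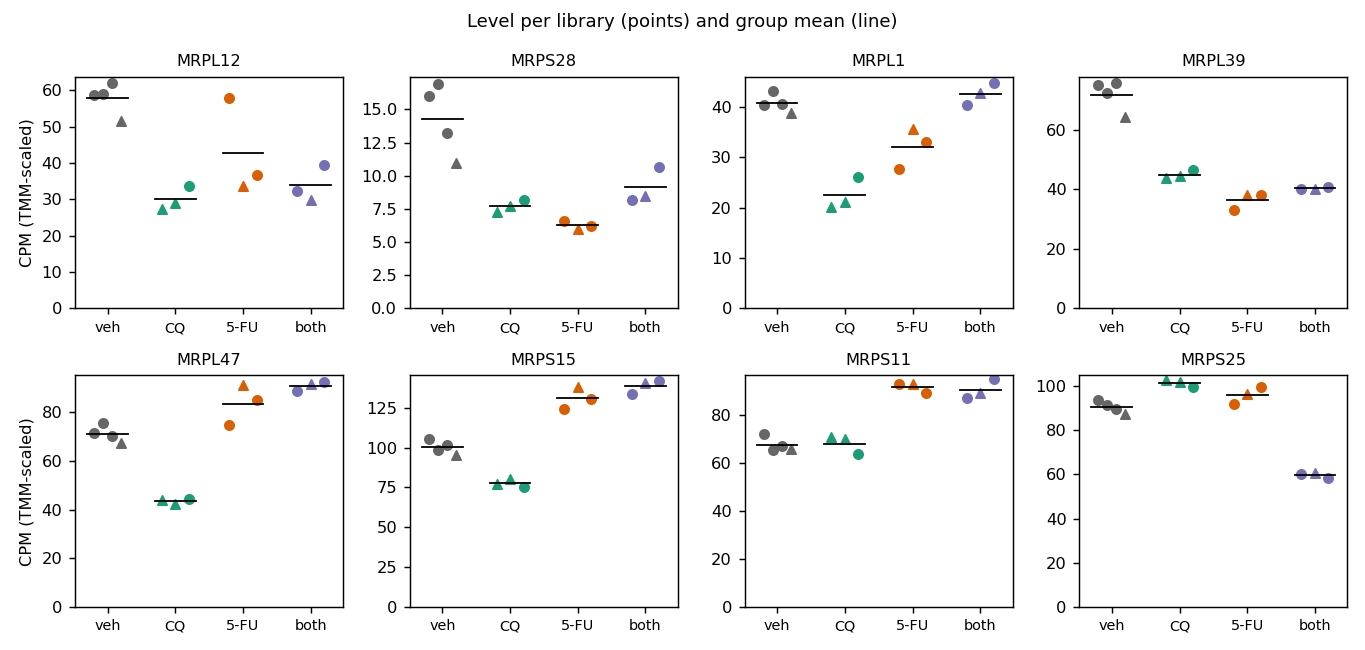
TMM-scaled CPM of 8 members in each library (y axis, from 0), with vehicle (veh), chloroquine (CQ), 5-FU and the combination (both) along the x axis. Points are libraries, triangles the 5 with COL1A2 counts of 153 or more, and lines are group means. MRPL1 and MRPL47 are lowest under chloroquine, MRPL39 is low under every treatment, MRPS11 is high wherever 5-FU was present, and MRPS25 is low only in the combination.

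With both drugs, members went in both directions from vehicle. Of 77, 24 fell, 14 rose and 39 did not pass, with 27.2% of all genes called lower and 28.1% higher. The share of members lower (31.2%) was near that of all genes, and the share higher (18.2%) was below it. The median log2 fold change was -0.06 (0.01 over all genes), with a range from -0.83 to 0.73. In 24 members the combination lay wholly below vehicle (28.8% of all genes) and in 15 wholly above (30% of all genes). Scaling by total count only gave 19 lower and 34 higher, beside 18.8% and 38% over all genes, and the median of the members then changed sign to 0.09, below the median of all genes at 0.15. Without the 5 libraries with COL1A2, 25 were lower and 13 higher, beside 26% and 26.4% of all genes.

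Among the falls in the combination, MRPL39 had 40.2, 40.1 and 40.8 CPM and a log2 fold change of -0.83 (SE 0.07, adjusted p = 1.4e-07) against vehicle. MRPL12 had 32.4, 29.9 and 39.4 CPM (-0.77), and MRPL16, a large-subunit core protein, had 63.8, 64.5 and 69.3 CPM against 115, 106, 109 and 104 CPM in vehicle (-0.72). None of these overlapped vehicle. MRPS34 (-0.70), MRPS28 (-0.64), MRPL38 (-0.61), MRPS25 (-0.60) and MRPL3 (-0.55) completed the 8 deepest log2 changes. Among the rises, MRPS23, a mitochondria-specific small-subunit protein, had 104, 98.3, 92.3 and 92.2 CPM in vehicle and 125, 135 and 141 CPM in the combination, a log2 fold change of 0.47 (SE 0.06, adjusted p = 5.95e-06) with no overlap. MRPS15 had 133, 141 and 142 CPM (0.47) and MRPL52 had 64.2, 65.8 and 69.9 CPM against 50.8, 50, 50.1 and 44.3 CPM in vehicle (0.45), both without overlap. MRPS11 (0.42), MRPS33 (0.41), MRPS10 (0.38), MRPS18C (0.35) and MRPL47 (0.35) also rose. MRPS18B had the highest value, 0.73 (adjusted p = 0.0107), from only 2.14, 2.11, 1.02 and 1.55 CPM in vehicle and 3.12, 2.70 and 2.62 CPM in the combination, and it lost its call without combination 1 (0.64, adjusted p = 0.0515).

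**Figure D2:**
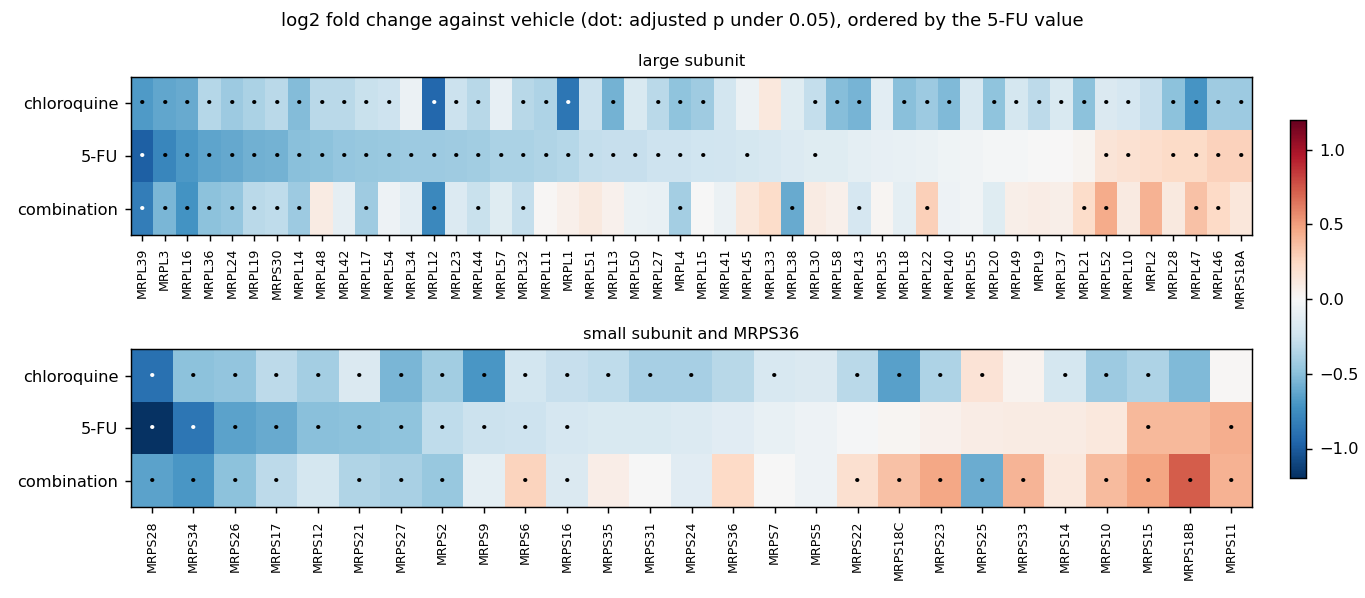
log2 fold change against vehicle of the 77 genes tested, with 1 row per treatment and 1 column per gene, in order of the 5-FU value within the large subunit (top) and the small subunit with MRPS36 (bottom). Blue is lower and red higher than vehicle, and dots mark an adjusted p under 0.05. The chloroquine row is blue for nearly all genes (60 called lower), while the combination row holds 24 lower and 14 higher.

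In the presence of 5-FU, chloroquine did not lower these genes as it did alone. Between the combination and 5-FU, 31 of 77 members were higher, 2 were lower and 44 did not pass, against 20.2% higher and 18.3% lower over all genes. The median log2 fold change was 0.16 (0.02 over all genes), from -0.69 to 0.60. In 37 members the combination lay wholly above 5-FU (24.8% of all genes) and in 3 wholly below (21.8%). Same-numbered 5-FU and combination libraries deviated together. At each number they also matched in being or not being among the 5 libraries with COL1A2, so this does not show pairing. With the replicate number as a block (the paired fit) in those groups alone, 20 members were higher and 3 lower. Over all genes that fit called 16.6% higher and 18.9% lower. Fitting those groups alone without the block gave 20 and 2, beside 15.4% and 17.8% of all genes. Without the 5 libraries with COL1A2 the counts were 28 and 3, beside 18.9% and 17.6% of all genes.

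MRPL48, a mitochondria-specific large-subunit protein, had the largest rise here. It had 37.1, 39.8 and 40.1 CPM with 5-FU and 54.7, 57.4 and 64.9 CPM in the combination, without overlap, and a log2 fold change of 0.60 (SE 0.07, adjusted p = 1.65e-05). MRPS6, a relative of bacterial S6, had 29.1, 29.1 and 31.3 CPM with 5-FU and 45.7, 39 and 43.7 CPM in the combination, also without overlap (0.52, SE 0.07, adjusted p = 8.93e-05). MRPS28 had 8.18, 8.50 and 10.7 CPM in the combination, above all 5-FU libraries. Its log2 fold change was 0.54 (SE 0.15, adjusted p = 0.0105), and the call was lost without combination 3 (0.41, adjusted p = 0.0568). MRPS23 (0.42), MRPL1 (0.41), MRPL33 (0.41), MRPL51 (0.40) and MRPL54 (0.38) also rose. The members that fell were MRPS25 and MRPL38. MRPL38 had 13.9, 9.52 and 11.4 CPM with 5-FU and 7.79, 8.90 and 8.94 CPM in the combination, a log2 fold change of -0.44 (SE 0.12, adjusted p = 0.0116). That call was lost without 5-FU 1 (-0.30, adjusted p = 0.0547) or without combination 1 (-0.38, adjusted p = 0.0582).

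The effect of chloroquine with and without 5-FU was compared directly as the interaction, which is the log2 fold change of the combination against 5-FU minus that of chloroquine against vehicle. It was positive and passed the test in 65 of 77 members, negative in 1 and did not pass in 11, against 20.6% positive and 19.3% negative over all genes. The median was 0.52 (-0.0021 over all genes). With libraries scaled by total count only it was positive in 47 and negative in 2, beside 12.2% and 25.9% of all genes. With only genes of at least 10 CPM in 3 libraries kept, these were 52 and 1 of 76, beside 25.9% and 24.9%. Without the 5 libraries with COL1A2, which leaves chloroquine with 1 library, the median was 0.54 (0.02 over all genes). With a term for those 5 libraries it was positive in 66 and negative in 1, beside 23.3% and 21.9% of all genes. That term treats the 5 libraries as alike, although they differ in erythroid and leukocyte markers. The comparisons of chloroquine with vehicle and of the combination with 5-FU use no library in common. Of the 60 members that fell under chloroquine alone, 24 were higher in the combination than in 5-FU, 0 were lower and 36 did not pass. The same split was not counted over all genes, so it is not shown to be particular to the members. Across the 77 members the effects with and without 5-FU had a Pearson correlation of -0.05 and a Spearman correlation of 0.06. These are descriptions across genes measured in the same libraries, which are not independent replicates. The log2 fold change was negative in 73 members without 5-FU and in 16 with it.

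The largest positive interactions were in MRPS28 (1.43, SE 0.20, adjusted p = 8.88e-05), MRPL1 (1.27, SE 0.13, adjusted p = 8.34e-06), MRPS18C (0.97, SE 0.16, adjusted p = 0.000239) and MRPL48 (0.92, SE 0.10, adjusted p = 7.21e-06). For MRPL1 the combination libraries, with 40.3, 42.8 and 44.7 CPM, overlapped vehicle (log2 fold change 0.06, adjusted p = 0.57), while 5-FU alone had 27.7, 35.5 and 33 CPM and was lower than vehicle (-0.34, adjusted p = 0.00476). MRPS18C had 25.7, 24.8, 22.6 and 20 CPM in vehicle, 14, 12.6 and 18.1 CPM under chloroquine, 22, 23.5 and 25.4 CPM under 5-FU and 29.9, 30.2 and 28.9 CPM in the combination. It was thus lowest under chloroquine alone and highest when both drugs were given.

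**Figure D3:**
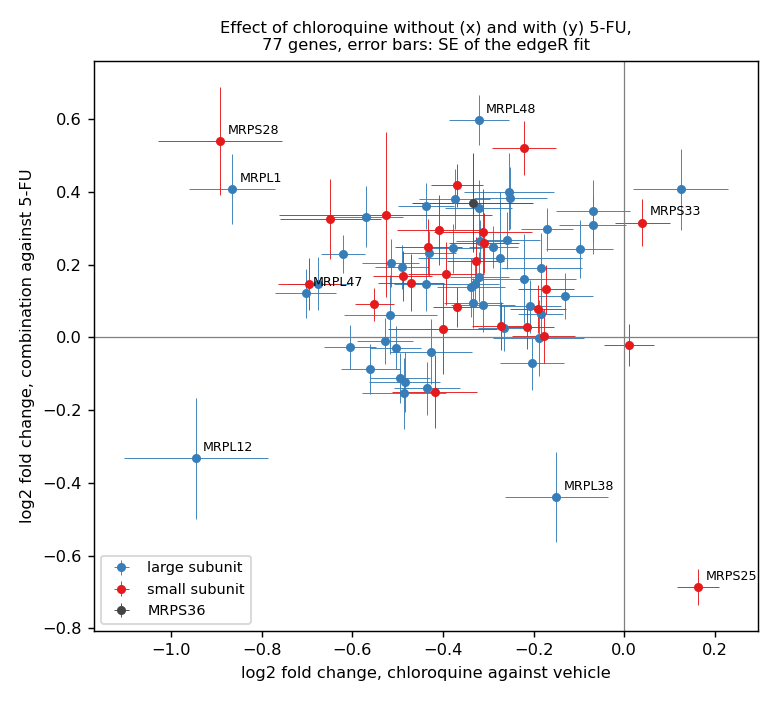
log2 fold change of chloroquine against vehicle (x axis) and of the combination against 5-FU (y axis) for 77 genes, with SE bars from the edgeR fit and colours for the subunit. Most points lie left of 0 on the x axis (73 genes) and above 0 on the y axis (all but 16), with MRPS25 farthest to the lower right.

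MRPS25 was the 1 member with a negative interaction that passed the test. It had 93.7, 91.6, 89.4 and 87.3 CPM in vehicle, 103, 102 and 99.6 CPM under chloroquine, 91.9, 96.5 and 99.7 CPM under 5-FU and 60.2, 60.5 and 58.4 CPM in the combination. The combination libraries lay below all 10 others. Its log2 fold change in the combination was -0.60 (SE 0.05, adjusted p = 1.08e-07) against vehicle, -0.69 (SE 0.05, adjusted p = 3.1e-07) against 5-FU and -0.76 (SE 0.05, adjusted p = 3.19e-08) against chloroquine, and its interaction was -0.85 (SE 0.07, adjusted p = 7.56e-07). These calls held in all alternatives. MRPS25 shares 22.2% of its exon length with NR2C2 on the opposite strand, and no source used here tells if strand was used in the counting. MRPL38, whose protein resembles phosphatidylethanolamine-binding proteins, was also lowest in the combination, but its interaction (-0.29, SE 0.17, adjusted p = 0.191) did not pass.

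Seen from the other side, most members were higher in the combination than under chloroquine alone. Between the combination and chloroquine, 42 of 77 were higher, 5 lower and 30 did not pass, with 24.8% of all genes higher and 25.7% lower. The median log2 fold change was 0.25 (-0.01 over all genes), from -0.76 to 1.25. In 48 members the combination lay wholly above chloroquine (29.7% of all genes) and in 6 wholly below (30.8%). MRPL47 had 88.6, 91.5 and 92.6 CPM in the combination, against the chloroquine values given above, and a log2 fold change of 1.06 (SE 0.07, adjusted p = 3.35e-08). MRPS18C (1.00), MRPL1 (0.93), MRPS15 (0.84), MRPS23 (0.83), MRPS10 (0.81) and MRPL22, which lines the peptide tunnel (0.72), also rose, and MRPS18B (1.25) did so at low depth. Besides MRPS25 and MRPL38 (-0.46), the members that fell were MRPS34 (-0.21), MRPS21 (-0.19) and MRPL17 (-0.16). Those 3 falls were small, and the count of members lower was 2 without chloroquine 2, without combination 1 or without combination 2. Without the 5 libraries with COL1A2, which leaves chloroquine with 1 library, the median of the members was 0.26 (0.0030 over all genes).

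The effects of 5-FU without and with chloroquine were set side by side in the same way. All 8 members that rose under 5-FU alone were also higher in the combination than in chloroquine, comparisons that again share no library. Of the 39 that fell under 5-FU alone, 3 were lower with chloroquine present (MRPL17, MRPS21 and MRPS34), 12 were higher and 24 did not pass. Neither split was counted over all genes, so neither is shown to be particular to the members. Across the 77 members the effects of 5-FU without and with chloroquine had a Pearson correlation of 0.58 and a Spearman correlation of 0.66, again as a description across genes. The order of the group means varied between members: the lowest mean was that of chloroquine in 44 members, of 5-FU in 27, of the combination in 4 and of vehicle in 2. The highest was that of vehicle in 42, of the combination in 29, of 5-FU in 5 and of chloroquine in 1. These orders of means take no account of the spread and were not counted over all genes, and neighbouring groups overlapped in many members.

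Both subunits contributed to these counts. Under chloroquine 39 of 50 large-subunit members fell (median log2 fold change -0.33) and 21 of 26 small-subunit members did (-0.37). Under 5-FU 28 of 50 large-subunit members were lower and 6 higher (56% and 12%, median -0.24). For the small subunit these were 11 and 2 of 26 (42.3% and 7.69%, median -0.17), beside 29.5% and 30.8% over all genes. In the combination 15 of 50 large-subunit members fell and 5 rose (30% and 10%), while 9 of 26 small-subunit members fell and 9 rose (34.6% each). Apart from the 10%, these shares lay near those of all genes in the combination (27.2% lower and 28.1% higher). The interaction was positive in 43 of 50 (median 0.48) and 21 of 26 (median 0.57). Relatives of bacterial proteins and mitochondria-specific proteins were both affected: 39 of 46 and 21 of 30 fell under chloroquine (medians -0.38 and -0.32), and the interaction was positive in 37 of 46 and 27 of 30 (medians 0.49 and 0.53). None of these differences between classes was tested.

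Members with a known further role or link to disease were named whatever their result. MRPL58, a peptidyl-tRNA hydrolase that frees stalled ribosomes, had 42.9, 42.9, 43.2 and 41.7 CPM in vehicle and 31.4, 30.2 and 27.9 CPM under chloroquine. Its log2 fold change was -0.52 without overlap (adjusted p = 2.47e-05), and it did not pass under 5-FU (-0.14, adjusted p = 0.0621). MRPL44, which has a ribonuclease III fold and is altered in an inherited cardiomyopathy, fell under chloroquine (-0.33), 5-FU (-0.41) and the combination (-0.27). MRPL45, which holds the ribosome at the inner membrane, fell only under 5-FU (-0.21, adjusted p = 0.0387) among the treatments against vehicle, and its call changed in 11 of 23 alternatives. MRPL41 passed in none of the 6 comparisons. MRPS12, the decoding-site relative of bacterial S12, had 35.2, 33.3, 32.9 and 30.8 CPM in vehicle, 24.4, 25.7 and 24.6 CPM under chloroquine and 25.7, 19.8 and 24.5 CPM under 5-FU, and both drugs lowered it (-0.41 and -0.50).

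MRPS2, MRPS22, MRPS7 and MRPS14, which are among the members linked to inherited combined respiratory chain deficiency, differed in their responses. MRPS2 fell under chloroquine (-0.42), 5-FU (-0.30) and the combination (-0.45), and its interaction did not pass (0.27, adjusted p = 0.133). MRPS22 had 95.5, 93.6, 90.5 and 90.4 CPM in vehicle, 67.9, 75.9 and 77.3 CPM under chloroquine and 106, 107 and 104 CPM in the combination. It fell under chloroquine (-0.33) and rose in the combination (0.20), with no overlap of either with vehicle. MRPS7 and MRPS14 fell slightly under chloroquine (-0.19 and -0.21) and did not pass under 5-FU or the combination. Among other members named whatever their result, MRPL13 (-0.57), MRPL36 (-0.34), MRPS30 (-0.32) and MRPS18A (-0.44) fell under chloroquine. MRPS36, the dehydrogenase adaptor, did not pass under chloroquine (-0.33, adjusted p = 0.0613) or 5-FU (-0.13), and 29.8 counts fell on its pseudogenes for every 100 of its own.

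Of the mitoribosomal proteins whose symbols lack MRP, 3 of 5 fell under chloroquine and 2 under 5-FU, beside 19.1% and 29.5% of all genes. GADD45GIP1 (log2 fold change -0.46), AURKAIP1 (-0.34) and DAP3 (-0.21) were lower under chloroquine. PTCD3 (-0.70) and CHCHD1 (-0.66) were lower under 5-FU and did not pass under chloroquine. Without the 5 libraries with COL1A2, GADD45GIP1 was the 1 of the 5 called lower under chloroquine (median -0.13, against -0.21 with all libraries). The ribosomal RNAs made in mitochondria went differently from the proteins. MT-RNR2, the large-subunit RNA, rose under chloroquine (0.38), 5-FU (1.39) and the combination (1.16). MT-RNR1, the small-subunit RNA, did not pass under chloroquine (0.04), rose under 5-FU (0.55) and was lower in the combination than in vehicle (-0.28, adjusted p = 0.0422). That call was lost with libraries scaled by total count only (-0.13, adjusted p = 0.354), with the filter at 10 CPM, and without vehicle 1 (-0.26), vehicle 3 (-0.30), vehicle 4 (-0.25), combination 1 (-0.19) or combination 3 (-0.27).

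Other gene lists of mitochondrial gene expression are given beside the members by their counts. Over all genes tested, 19.1% were lower and 20.3% higher under chloroquine, 29.5% and 30.8% under 5-FU, and 27.2% and 28.1% in the combination. The interaction was positive in 20.6% and negative in 19.3%. Of 25 mitoribosome assembly factors 14 fell and 0 rose under chloroquine (median log2 fold change -0.23). Under 5-FU 8 fell and 8 rose (32% each), near the shares of all genes. With libraries scaled by total count only 6 fell and 13 rose, beside 18.8% and 42.5% of all genes. TFB1M, which methylates the small-subunit RNA, fell under chloroquine (-0.79) and 5-FU (-0.58), and MALSU1, a large-subunit assembly factor, fell under chloroquine (-0.53). NOA1 fell under chloroquine (-0.22) and NSUN4 rose under 5-FU (0.37), whereas ERAL1 passed in no comparison and DDX28 only between the combination and chloroquine (0.18). Of 15 mitochondrial translation factors, 7 fell and 0 rose under chloroquine, and the interaction was positive in 11 (in 6 with libraries scaled by total count only, and in 6 without the 5 libraries with COL1A2). Of 19 mitochondrial tRNA synthetases tested, 14 fell under chloroquine (median -0.37), 16 under 5-FU (-0.48) and 15 in the combination (-0.47). Their interaction was positive in 11 and negative in 0 (median 0.46), or in 10 and 2 with libraries scaled by total count only. The nuclear-encoded respiratory chain genes had counts in the same directions as the members: 27 of 44 fell and 0 rose under chloroquine (median -0.29), and the interaction was positive in 30 and negative in 0 (median 0.43).

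The mRNAs encoded by mitochondrial DNA and the cytosolic ribosomal proteins gave other values under chloroquine alone. Of 13 mitochondrial mRNAs 11 rose and 0 fell under chloroquine (median log2 fold change 0.66), and the interaction was negative in 10 (median -0.77). Of 77 cytosolic ribosomal protein genes 16 fell and 4 rose under chloroquine (median -0.09), while 70 fell under 5-FU (-0.66) and 65 in the combination (-0.44). The share that fell under chloroquine, 20.8%, was near the 19.1% of all genes. Between the combination and 5-FU, 37 of the 77 were higher and 2 lower (median 0.21), beside 20.2% and 18.3% of all genes. The interaction of the cytosolic genes was, as in the members, more often positive than negative: 39 and 2 (median 0.30). With libraries scaled by total count only it was positive in 23 and negative in 3. With libraries scaled by total count only, the chloroquine median of the cytosolic genes was 0.0060, with 7 higher and 7 lower, and the mitochondrial mRNAs were again higher (12 of 13). Without the 5 libraries with COL1A2, 6 mitochondrial mRNAs rose under chloroquine (median 0.30) and their interaction was negative in 4 (median -0.30), and 25 cytosolic ribosomal protein genes and 9 assembly factors fell under chloroquine.

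**Figure D4:**
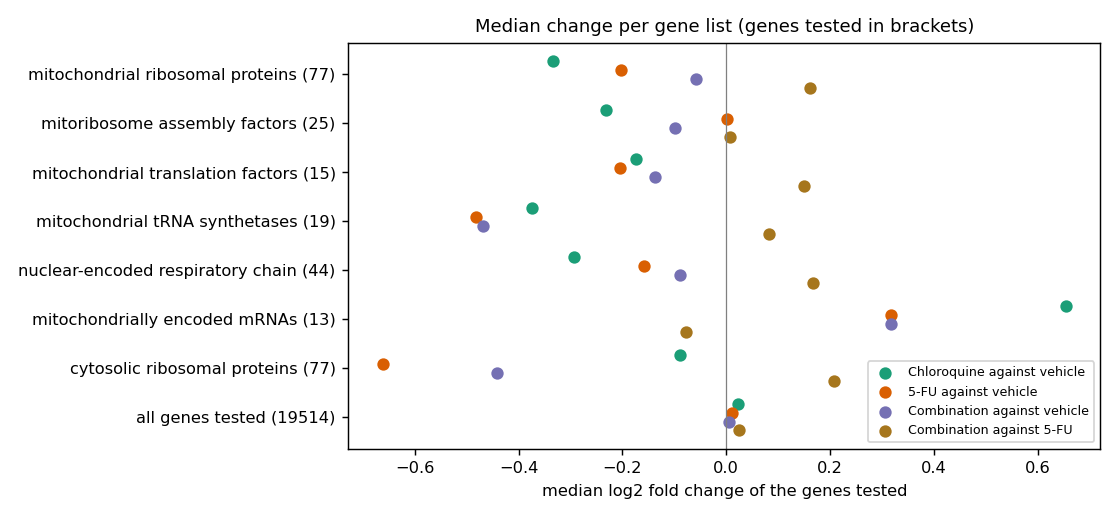
Median log2 fold change (x axis) of the genes tested in each list (rows, with the number tested in brackets) for chloroquine, 5-FU and the combination against vehicle and for the combination against 5-FU. The mitochondrial ribosomal proteins lie at -0.33 under chloroquine beside the nuclear-encoded respiratory chain at -0.29, the mitochondrial mRNAs at 0.66 (0.30 without the 5 libraries with COL1A2) and the cytosolic ribosomal proteins at -0.09 (0.0060 with libraries scaled by total count only).

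Regulators of nuclear genes for mitochondria were read from a list of 10. NRF1 fell under chloroquine (-0.50), 5-FU (-0.42) and the combination (-0.56). GABPB1, a subunit of GA-binding protein, fell most under chloroquine (-0.64) and had a positive interaction (0.67, SE 0.09, adjusted p = 4.19e-05), while GABPA, the DNA-binding subunit, passed in no comparison. TFAM, which packages mitochondrial DNA, fell under chloroquine (-0.29), 5-FU (-0.57) and the combination (-0.23). MYC did not pass under chloroquine (-0.05) and fell under 5-FU (-2.42) and the combination (-2.19). PPARGC1A, a coactivator of mitochondrial biogenesis, rose under chloroquine (1.17), 5-FU (0.90) and the combination (1.24), and PPRC1 was lowest in the combination (-0.74 against vehicle). RNA levels say nothing of the activity of these proteins.

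RefSeq promoters, from 250 bases before to 50 after the start, were matched for 69 of the 78 members and searched on both strands beside all 27305 promoters. The ETS core CCGGAAG was found in 29 members (42.0%) and in 10.7% of all promoters. AAGATGGCG, a YY1 core, was found in 13 members (18.8%) and 1.85% of all, the NRF1 motif CGCANGCG in 13 members (18.8%) and 10.6% of all, and the E-box CACGTG in 6 members (8.7%) and 7.43% of all. Those promoters include genes not tested here. Among genes tested, 2119 had the NRF1 motif and 9619 lacked it, and 13 and 55 of the members. On that base the NRF1 motif was about as common in members as in all genes. The ETS core was in 2100 genes tested and absent in 9638, against 28 and 40 members. For YY1 these were 427 and 11311, against 13 and 55, and for the E-box 1171 and 10567, against 6 and 62. Most members fell under chloroquine with or without the ETS core: 24 of 28 with it fell and 30 of 40 without it fell (median log2 fold changes -0.40 and -0.33). Over all genes with a promoter, 29% of those with the ETS core and 21.6% of those without it were called lower. The interaction was positive in 26 of 28 members with the core and 32 of 40 without it, against 32% and 22.8% over all genes. MRPS34, with 3 matches in the stretch printed above, and MRPL12, with 0 there, both fell under chloroquine (-0.49 and -0.95). A match is a run of letters, not a shown binding site, and the differences between members with and without it were not tested.

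Exons of 41 of the 78 members overlap another gene in GENCODE 29, 16 of them on the same strand, and in 1 member, MRPL12, over 50% of the exon length is shared. Other members named above with shared exon length include MRPS18A (47.0%), MRPL38 (41.1%), MRPS18C (40.2%) and MRPS28 (35.8%, with AC036214.3 on the same strand). MRPS28 had 131 to 296 counts per library. The 40 tested members with any overlap and the 37 without were set side by side: their median log2 fold changes under chloroquine were -0.33 and -0.37, and their median interactions were 0.45 and 0.58. The table also holds 76 pseudogenes named after members, 31 of which had no count. Together they held 0.408 to 0.572 counts per 100 counts of the members. Reads of MRPL45, whose pseudogenes held 36.6 counts per 100 of its own, and of MRPS36 are the least certain in this respect among the members tested, followed by MRPS31 (8.38) and MRPL3 (6.49).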

How the data were processed

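The deposited values are raw read counts for each gene in each library, in 1 table with human symbols made by the authors. Total RNA was sequenced with a directional library kit, per the labels' protocols. Which aligner and counting tool were used, and if strand was counted, is not given in those sources. The submitters' processing notes name DESeq, without version, and GRCm38, a mouse build. Coordinates are therefore printed only for RefSeq promoters of GRCh38.p14. All columns matched 1 library each, and no columns were identical.

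After filterByExpr of edgeR 4.0.16 (in R 4.3.3), 19514 genes with at least 99.84% of each library's counts were kept. The 13 libraries were scaled by TMM and entered 1 quasi-likelihood model, with 1 mean for every group, that gave all 6 comparisons. The model was also run on simulated counts in which few genes changed, as many up as down. In these data far more genes were called, so that run does not test the scaling. Calls used a Benjamini-Hochberg adjusted p under 0.05 over all genes tested. Log2 fold changes are from this model, and CPM are TMM-scaled.

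The members, the lists and the comparisons were chosen with earlier results of these data known. Named members were, per comparison, up to 8 called with the largest rise and 8 with the largest fall (4 each in the interaction), plus 20 chosen for their role or disease link. Other genes were named from the lists. Alternatives in scaling were RLE size factors and library size only. Alternative tests were the Wald test of DESeq2 1.42.0 and limma-voom (limma 3.58.1). Low counts were also left in, or filtered at 10 CPM in at least 3 libraries. The model was also fitted to the compared groups alone, with a replicate block, with a term for libraries with at least 50 COL1A2 counts, without those libraries, and without each single library, and calls were repeated at an adjusted p under 0.01. Same-numbered libraries of 5-FU and the combination had residual correlations of 0.169, 0.674 and 0.162. In no other pair of groups did every same-numbered pair exceed 0.1. Over all pairs of groups, the correlation was positive where both or neither of the same-numbered libraries were among the 5 with COL1A2. It was negative where they differed in this. 5-FU and the combination matched in this at every number, so their correlations cannot tell pairing from it. The block took the numbers as pairs in those groups, although the labels do not say what a number stands for. The block in those groups alone was added after the correlations were seen.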

Additional observations from a re-analysis of the deposited data

Results flagged for a closer look

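In 22 of the 24 members named for this comparison, by size or by role, the effect of chloroquine differed with and without 5-FU by the test of the difference itself (the interaction in edgeR, adjusted p under 0.05). Of all 46 members named in any comparison 40 passed that test, 39 with a positive and 1 with a negative value. Over all genes tested, 20.6% were positive and 19.3% negative. MRPS28, MRPL1, MRPS18C, MRPL48 and MRPS25 were named because they passed, and many of the 46 for a call in another comparison. These counts of named members are therefore not a test. Of the 22, the log2 difference was positive for 21 and negative for MRPS25 (-0.848). It was 1.43 for MRPS28, 1.27 for MRPL1, 0.974 for MRPS18C, 0.918 for MRPL48, 0.901 for MRPL13, 0.864 for MRPS18B, 0.85 for MRPL3, 0.741 for MRPS6, 0.719 for MRPL58, and 0.705 each for MRPS12 and MRPS36. It was 0.658 for MRPS34, 0.613 for MRPL12, 0.583 for MRPS30, 0.538 for MRPS22, 0.476 each for MRPL36 and MRPL44, 0.416 for MRPL45, 0.296 for MRPS18A, 0.269 for MRPS7 and 0.244 for MRPS14. Of these, the calls of MRPS18A (15 of 22 alternatives), MRPS18B (15 of 21), MRPL12 (12 of 22), MRPS14 (10 of 22) and MRPS7 (9 of 22) changed most often.

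Of 46 named members, 2 had a vehicle library apart from the other 3, by a gap to the nearest of them that was large against the range of the group (Dixon's criterion). MRPL52 had 44.3 CPM in vehicle 4 against 50 to 50.8 CPM in the others, and MRPS33 had 88.9 CPM in vehicle 4 against 100.2 to 102 CPM. Vehicle 4 is the vehicle library with COL1A2 counts, whose part in these values was not tested. By chance alone about 1 in 20 such groups is marked.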

How the results depend on the processing

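Of the counts of called members over all alternatives, 261 were within 1.5 times the reported count and 27 were not. Chloroquine against vehicle gave 0 members higher in place of 1 at an adjusted p under 0.01, with no filter, with the replicate block and without the libraries with COL1A2, and 0 to 1 when single libraries were left out, with 52 to 66 lower. 5-FU against vehicle gave 5 higher at p under 0.01 and without the libraries with COL1A2, 19 higher and 24 lower with library size only, and 13 higher with the filter at 10 CPM. Combination against vehicle gave 34 higher with library size only and 24 with the filter at 10 CPM. Combination against 5-FU gave 19 higher and 1 lower at p under 0.01, 20 higher with only the groups compared and 20 with the replicate block in 5-FU and the combination alone. Leaving out single libraries gave 1 to 3 lower there, 1 without 5-FU 1 or combination 1 and 3 without 5-FU 2 or combination 3. Combination against chloroquine gave 2 lower at p under 0.01, with library size only and without the libraries with COL1A2, and 2 to 5 when single libraries were left out. The interaction gave 47 members higher and 2 lower with library size only, and 52 higher with the filter at 10 CPM. When single libraries were left out, 1 to 2 were lower (2 without 5-FU 2) and 56 to 68 higher. The replicate block in all libraries moved no other count by over 1.5 times.

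Scaling by library size moved the median of all genes to 0.12 under chloroquine, 0.20 under 5-FU, 0.15 in the combination and -0.14 in the interaction. The members' medians relative to it were -0.36, -0.21, -0.06 and 0.52. The sign of the log2 fold change turned under it in 20 of 77 members under 5-FU, in 16 in the combination and in 2 under chloroquine. Among the genes named for each comparison, those that passed the test after turning were MRPS22 under 5-FU (0.178), and MRPS7 (0.141) and DAP3 (0.141) in the combination. Apart from the scaling, the causes of these moves were not tested. MRPS18B, with 21 to 72 counts per library, is limited by depth. Of the members called, 44 of 60 falls under chloroquine and 46 of 65 positive interactions kept their call in all alternatives.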
